A study of Mus musculus with 30 samples.

Results

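RNA abundance was compared between mouse tail fibroblasts treated with Clofilium tosylate and the same fibroblasts given only the solvent DMSO. The comparison rests on 9 of the 30 libraries of the series, 3 of Clofilium tosylate and 6 of DMSO. Of the 29861 genes listed, 12934 had at least 1 TPM in at least 3 of those 9 libraries and were tested. TPM is a relative transcript abundance, corrected for transcript length, that sums to 1000000 over all transcripts of a library. Of the genes tested, 17 passed this filter only through the Clofilium tosylate libraries and 146 only through the DMSO libraries.

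The cells were CCG-HTA-1, a primary fibroblast line from the tails of UMHet3 mice, a genetically mixed stock, aged 5 to 8 weeks in both groups. Both groups were grown to passage 4 in high-glucose medium without pyruvate and with 10% fetal calf serum, at 37 °C, 10% CO2 and ambient oxygen. Compound or DMSO was added 24 hours after plating, at about 80% confluence, and cells were collected 48 hours after treatment for ribosome-depleted total RNA. The 7 other compounds of the series, with 3 libraries each, were Antimycin A, Dihydrorotenone, Diphenyleneiodonium Cl, Cardamonin, BerberineA, AEG 3482 and Podofilox. Doses are absent from the labels, so no comparison between compounds is at a matched dose. All libraries came from 1 line, so p-values measure only the spread between these cultures or libraries, which may be technical.

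Clofilium is a quaternary ammonium compound known as a blocker of voltage-gated potassium channels and was developed against cardiac arrhythmia. It is also known from studies of inherited defects of the mitochondrial DNA polymerase, where it raised the amount of mitochondrial DNA. The study's title concerns small molecules that make cells resistant to stress through NRF2, a transcription factor for antioxidant genes, or without it. The integrated stress response works as follows: kinases that sense stress phosphorylate the translation factor eIF2, most protein synthesis slows, and the transcription factor ATF4 is translated and raises genes of amino acid synthesis, uptake and tRNA charging. In fibroblasts, impaired mitochondria are a known trigger of this response. Type I interferon signalling raises antiviral genes in nearly all cell types.

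In all, 3191 of the 12934 genes (24.7%) differed between Clofilium tosylate and DMSO at an adjusted p below 0.05 in limma, 1480 higher (11.4%) and 1711 lower (13.2%) in Clofilium tosylate. Most differences were small: 98 genes changed by at least 2-fold, 53 of them higher and 45 lower, and the median difference over all genes tested was −0.001 on the log2 scale. The 3 treated libraries lay wholly outside the range of the 6 controls for 2784 genes (21.5%). All differences are log2 differences of TPM + 1, which understate the change of low genes, given with their standard error. Genes of the integrated stress response, tRNA charging and the interferon response stood higher after Clofilium tosylate, and genes of the endoplasmic reticulum, lipid synthesis, the matrix and inflammation stood lower. Each gene list below is read against the shares of 11.4% higher and 13.2% lower over all genes.

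Listed genes summed to 933877 to 937134 TPM of 1000000 in the 9 libraries, and 12569 to 12700 genes reached 1 TPM. The number of reads is unknown, since TPM does not carry it. Library numbers run consecutively within each group, so compound and library order cannot be told apart. All 12 fibroblast markers were expressed, at a summed 9920 to 10504 TPM in Clofilium tosylate and 11981 to 13570 in DMSO. Among markers of other cell types, Krt5 and Krt15 of keratinocytes, Cd3e and Cd2 of T cells and Myod1 and Ckm of muscle were at 0 in all 9 libraries. Others were expressed: Adgre1, Csf1r and Cd68 of macrophages averaged 10.4 ± 1.05, 2.98 ± 0.277 and 13.1 ± 1.46 TPM in DMSO (SD, n = 6), Tek of endothelium 6.56 ± 1.26 and Mlana of pigment cells 4.41 ± 0.970. Of the 7 endothelial markers, however, 5 were below 1 TPM in all 9 libraries. So were 3 of the 8 macrophage markers, 3 of the 6 nerve sheath and pigment cell markers and 7 of the 8 keratinocyte markers. The keratinocyte marker above that level, Krt10, averaged 1.68 TPM in Clofilium tosylate and 1.76 in DMSO. Macrophage markers summed to 145 to 148 TPM in Clofilium tosylate and 192 to 252 in DMSO, most of it Lyz2. Adipocyte markers summed to 166 to 171 and 147 to 185 TPM, most of it Lpl, with Adipoq and Plin1 at or near 0. Fabp4 averaged 16.4 TPM in Clofilium tosylate and 20.5 in DMSO. Chondrocyte and bone markers summed to 30.9 to 36.7 TPM in Clofilium tosylate and 31.1 to 39.3 in DMSO. Runx2, Alpl and Sox9 averaged 19.5, 9.29 and 4.48 TPM in DMSO, and 2 of the 7 markers were below 1 TPM in all 9 libraries.

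Members of 2 gene groups that rose together carry known promoter elements, so short promoter windows of 10 members are shown, chosen by hand among members with a match. The windows are 60 bases long, from the 300-base RefSeq promoters on GRCm38.p6 that reach from 250 bases before to 50 bases after a gene's start, and are written 5′ to 3′ on the strand of the gene. In the first 5, capitals mark a match, on either strand, to TGATGNAA, the core of the element that ATF4 binds together with C/EBP proteins.
Chac1, chr2:119351029-119351088, plus strand: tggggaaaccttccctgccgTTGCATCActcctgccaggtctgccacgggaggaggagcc
Nupr1, chr7:126625541-126625600, minus strand: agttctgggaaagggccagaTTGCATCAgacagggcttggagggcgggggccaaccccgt
Vldlr, chr19:27216800-27216859, plus strand: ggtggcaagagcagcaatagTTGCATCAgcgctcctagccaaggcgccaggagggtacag
Aars, chr8:111033710-111033769, plus strand: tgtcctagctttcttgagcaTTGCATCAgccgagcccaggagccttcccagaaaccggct
Gars, chr6:55037941-55038000, plus strand: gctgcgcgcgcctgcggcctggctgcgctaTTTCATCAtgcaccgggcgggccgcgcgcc
In the next 5, capitals mark matches on either strand to GAAA followed by any 2 bases and a second GAAA, the core of the interferon-stimulated response element; where matches overlap, the capitals cover both.
Ifit3, chr19:34583353-34583412, plus strand: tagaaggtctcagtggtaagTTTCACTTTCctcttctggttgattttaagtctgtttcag
Rsad2, chr12:26456533-26456592, minus strand: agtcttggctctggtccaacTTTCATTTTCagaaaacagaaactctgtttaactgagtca
Bst2, chr8:71537563-71537622, minus strand: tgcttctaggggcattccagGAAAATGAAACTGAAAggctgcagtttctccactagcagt
Isg15, chr4:156200857-156200916, minus strand: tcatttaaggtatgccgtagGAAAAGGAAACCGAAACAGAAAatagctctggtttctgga
Oas1a, chr5:120907526-120907585, minus strand: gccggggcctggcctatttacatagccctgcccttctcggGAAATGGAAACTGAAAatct

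TGATGNAA occurred in 3.97% of the 32851 RefSeq promoters and in 2.78% of the 9642 tested genes with a promoter in that table. It occurred in 5 of 20 integrated stress response regulators (25.0%), which were Atf3, Trib3, Chac1, Nupr1 and Vldlr, and in 5 of 12 cytosolic aminoacyl-tRNA synthetases (41.7%), which were Aars, Gars, Iars, Tars and Yars. It occurred in 0 of 16 serine, glycine and one-carbon enzymes and in 2 of 16 amino acid transporters (12.5%), Slc7a11 and Slc1a4. The match in Trib3 does not lie wholly within the 250 bases before the start and is not printed. The paired GAAA motif occurred in 3.44% of all promoters and in 3.82% of tested genes, against 15 of 25 type I interferon-stimulated genes (60%) and 10 of 20 interferon-inducible GTPases and antigen presentation genes (50%). These counts describe letters in a window and do not show that a factor binds there.

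Trib3 had the largest rise of any gene named here. It encodes a pseudokinase raised by ATF4 and CHOP that curbs AKT signalling. Trib3 stood at 38.3, 43.9 and 39.9 TPM in Clofilium tosylate replicates 1 to 3 and at a lowest, median and highest of 3.05, 4.68 and 4.97 TPM in DMSO. Every treated library was more than 7 times the highest control, a log2 difference of 2.95 ± 0.10 (adjusted p = 3.99e-17 in limma). The gene is at chromosome 2, 152337422 to 152344032, minus strand (GRCm38).

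Of 24 regulators and direct targets of the integrated stress response, 15 rose, 1 fell and 8 did not pass, with a median difference of 0.32. In 16 of the 24 the treated libraries did not overlap the controls. The central transcription factor Atf4 itself stood at 183, 185 and 181 TPM against 125, 134 and 144 in DMSO, again given as lowest, median and highest. That rise was modest, 0.45 ± 0.04, but its 3 libraries lay within a narrow band above every control (adjusted p = 2.67e-08). Factors of the same response moved further. Ddit3, which encodes CHOP, a factor of prolonged stress, rose by 1.10 ± 0.07 (adjusted p = 5.35e-11), from 84.2 ± 6.52 to 181 ± 4.90 TPM (mean ± SD, n = 6 and 3). Atf5, a factor tied to mitochondrial protein stress, stood at 196, 224 and 194 TPM against 78.9, 82.8 and 86.6 in DMSO, a difference of 1.30 ± 0.05 (adjusted p = 1.22e-15). Neither gene overlapped between the groups.

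Chac1, which degrades glutathione and is a sensitive ATF4 and CHOP target, stood at 12.1, 15.8 and 11.2 TPM against 2.35, 3.12 and 3.95, a difference of 1.77 ± 0.13 (adjusted p = 1.79e-10). Vldlr, a lipoprotein receptor, rose by 0.79 ± 0.12. Both have the ATF4-type motif shown above. Nupr1, a small stress-induced chromatin protein with the same motif, was abundant in DMSO at 255 ± 11.5 TPM and rose by 0.52 ± 0.05. Sesn2, a leucine sensor that restrains mTORC1, rose by 0.52, and Ppp1r15a, the phosphatase subunit that reverses eIF2 phosphorylation, by 0.34. Cth and Gpt2, enzymes of cysteine and alanine synthesis, each rose by 0.60. Adm2, a secreted peptide outside the list, was among the 12 largest rises, at 5.21, 5.61 and 4.24 TPM against 0.754, 1.08 and 1.75 (1.48 ± 0.14, adjusted p = 2.05e-08).

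None of the 4 kinases that start the response by phosphorylating eIF2 passed in the higher direction. Eif2ak3, which encodes PERK, the sensor in the endoplasmic reticulum, fell by 0.38 (adjusted p = 5.09e-05), with 17.97, 19.5 and 18.1 TPM against 21.9, 24.4 and 27.4. Eif2ak4, which encodes the amino acid sensor GCN2, differed by −0.03 ± 0.08 (adjusted p = 0.834), and Atf3, a partner factor, by 0.08 ± 0.11 (adjusted p = 0.665). The groups overlapped in both. Kinase activity is not measured by RNA abundance.

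**Figure D1:**
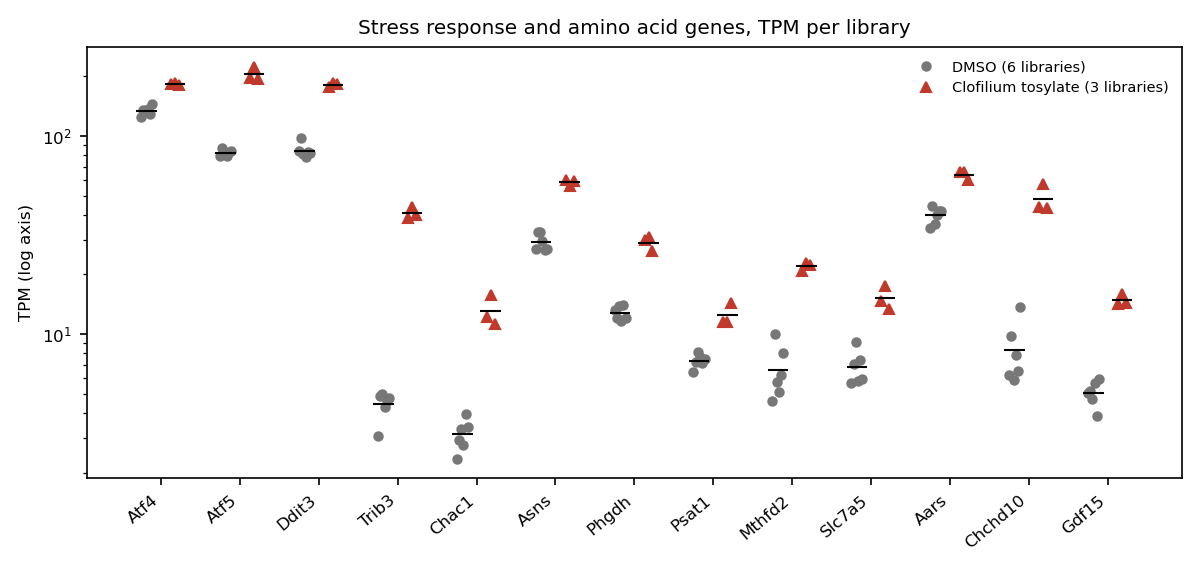
TPM of 13 stress response, amino acid and mitochondrial stress genes in each library, on a log axis. Grey circles are the 6 DMSO libraries, red triangles the 3 Clofilium tosylate libraries and black lines the group means. In every gene shown, all 3 treated libraries lie above all 6 controls, with the widest gap in Trib3 (40.7 against 4.42 TPM on average).

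The enzymes that make serine and feed its carbon into folate are classic ATF4 targets, and 5 of the 19 tested rose while 1 fell. Mthfd2, the mitochondrial folate enzyme, stood at 20.7, 22.9 and 22.3 TPM against 4.57, 5.95 and 10.1 in DMSO, a difference of 1.63 ± 0.14 (adjusted p = 7.25e-09). The highest control was below the lowest treated library. Phgdh, the first and committed enzyme of serine synthesis, stood at 29.7, 30.9 and 26.2 TPM against 11.7, 12.7 and 13.9 (1.12 ± 0.10, adjusted p = 5.57e-09), and 55.8% of its 31-base words also occur in other genes, so reads may have been shared. Psat1, the next enzyme, rose by 0.68 ± 0.10, Aldh1l2 by 0.61 ± 0.13 and Shmt2 by 0.42 ± 0.08. The fall was in Mthfd2l, a paralogue of Mthfd2, at −0.25 ± 0.06 (adjusted p = 0.00356); that count of falls was 2 without Clofilium tosylate replicate 1 and 0 without replicate 2. The median of the list was 0.07.

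Asns, which makes asparagine and is a standard ATF4 reporter, stood at 60.1, 56.0 and 59.2 TPM against 26.5, 28.3 and 32.8 (0.98 ± 0.08, adjusted p = 2.69e-09). Its neighbours in proline and ornithine metabolism went the other way. Pycr1, the last enzyme of proline synthesis, fell to 11.0 ± 0.748 from 17.2 ± 2.11 TPM (−0.59 ± 0.12, adjusted p = 0.000833). Oat, which links ornithine to proline, fell by 0.40. Of the 16 enzymes of proline, asparagine and glutamate tested, 2 rose and 4 fell.

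Amino acid transporters were divided, with 7 of 22 higher and 5 lower; the lower count was 3 without Clofilium tosylate replicate 2 or replicate 3. Slc7a5, the light chain of the large neutral amino acid exchanger, stood at 14.7, 17.4 and 13.4 TPM against 5.66, 6.49 and 9.13 (1.06 ± 0.10, adjusted p = 3.17e-08). Slc7a1, a carrier of arginine and lysine, rose by 0.72 ± 0.09, and Slc7a11, the cystine carrier shared by the ATF4 and NRF2 programmes, by 0.44 ± 0.10 with 1 treated library inside the control range. Slc3a2, the heavy chain that both exchangers need, rose by 0.30. Slc1a3, a glutamate carrier, fell by 0.77 (adjusted p = 2.89e-05), with 25.8, 29.1 and 26.2 TPM against 39.8, 47.4 and 53.8. Slc38a2, a glutamine carrier that ATF4 is known to raise, fell by 0.32 (adjusted p = 2.96e-06).

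Aminoacyl-tRNA synthetases charge tRNAs with amino acids, and the cytosolic enzymes moved one way: 13 of 20 rose, 0 fell, and the median was 0.23. Of the 20 differences, 17 were above 0. Aars, for alanine, stood at 65.9, 65.9 and 59.8 TPM against 34.1, 40.8 and 44.3 (0.68 ± 0.08, adjusted p = 3.99e-07). Gars, for glycine, stood at 87.7, 89.6 and 85.7 TPM against 63.2, 64.3 and 68.7 (0.43 ± 0.04, adjusted p = 3.86e-09). In both genes, which carry the motif printed above, the groups did not overlap. Cars rose by 0.62, Sars by 0.47 and Mars by 0.46. The mitochondrial enzymes did not follow: 2 of 17 rose (Nars2 by 0.41 and Tars2), 0 fell and the median was 0.06. The count of 2 was 1 without Clofilium tosylate replicate 2 or 3 or DMSO replicate 1, 2, 3 or 6. With single libraries left out, the cytosolic count stayed between 11 and 13, and 1 member fell without DMSO replicate 4.

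Mitochondrial stress genes held the second largest rise. Chchd10 encodes a protein of the mitochondrial intermembrane space that is mutated in motor neuron and muscle disease. It stood at 43.8, 57.0 and 43.4 TPM against 5.87, 7.17 and 13.6 in DMSO, a difference of 2.44 ± 0.17 (adjusted p = 9.02e-11; chromosome 10, 75933130 to 75937747, plus strand). Its highest control was far below the lowest treated library. Gdf15, a secreted hormone of mitochondrial and other stress, stood at 14.1, 15.9 and 14.4 TPM against 3.87, 5.10 and 5.92 (1.39 ± 0.09, adjusted p = 5.54e-11). Fgf21, another common stress hormone, did not pass the filter on low values and was not tested.

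Of 27 genes of mitochondrial protein quality control and secreted stress signals, 10 rose and 3 fell; the 3 falls were 1 without Clofilium tosylate replicate 2. Hspa9, the matrix chaperone mortalin, stood at 214, 213 and 214 TPM against 145, 145 and 161 (0.52 ± 0.03, adjusted p = 5.59e-11). Proteases of the matrix and inner membrane rose with it, Lonp1 by 0.44 ± 0.05, Afg3l2 by 0.42 ± 0.06 and Clpp by 0.27 ± 0.06. Hspd1, the chaperonin that is the usual marker of the mitochondrial unfolded protein response, differed by 0.06 ± 0.05 (adjusted p = 0.429) and overlapped between the groups. Dele1, which relays mitochondrial stress to the eIF2 kinase HRI, rose by 0.20 ± 0.06 (adjusted p = 0.0105), while Oma1, the protease that cleaves it, differed by −0.08 ± 0.10 (adjusted p = 0.612).

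Transcripts of the mitochondrial genome were compared in the 13 protein-coding genes, and 3 rose while 0 fell, with a median of 0.14; with single libraries left out 2 to 4 rose, and 1 fell without DMSO replicate 6. mt-Co1, a subunit of complex IV, stood at 14489.7, 11784 and 14137 TPM against 9344, 9969 and 11019.5 (0.41 ± 0.06, adjusted p = 1.72e-05). mt-Atp6, of the ATP synthase, stood at 4471, 4084 and 5937 TPM against 3151, 3343 and 3869 (0.47 ± 0.10, adjusted p = 0.00121). Both genes share most of their sequence with other annotated genes (63.9% and 99.5% of 31-base words), so these values are uncertain. mt-Nd2, of complex I, differed by 0.27 ± 0.08 (adjusted p = 0.0116) with overlapping groups, a call that was lost without Clofilium tosylate replicate 1 or 3. Replicate 2 was the lowest of the 3 treated libraries in all 3 genes. The mitochondrially encoded share of all listed TPM was 5.80 ± 0.628% in Clofilium tosylate and 5.08 ± 0.311% in DMSO (SD, n = 3 and 6). That difference did not pass an exact two-sided permutation test (p = 0.0952, adjusted p = 0.143 over 3 tests), and the smallest p this design allows is 0.0238.

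Genes that copy and transcribe mitochondrial DNA were listed because of what is known of clofilium, and 3 of 37 rose and 4 fell, shares below those over all genes. Polg, the catalytic subunit of the mitochondrial DNA polymerase, stood at 33.1, 40.5 and 34.3 TPM against 31.3, 33.4 and 39.9 (0.06 ± 0.08, adjusted p = 0.635). Tfam, which packages mitochondrial DNA, differed by −0.10 ± 0.08 (adjusted p = 0.428), and Twnk, the helicase, by 0.08 ± 0.05 (adjusted p = 0.283). In none of the 3 genes were the groups apart. Amounts of mitochondrial DNA were not measured. Of the nuclear subunits of the respiratory chain, 4 of 36 in complex I rose and 1 fell, and 3 of 40 in complexes II to V rose and 3 fell. Those small counts turned on single libraries, with complex I rises of 1, 1 and 0 without Clofilium tosylate replicates 1, 2 and 3 and 2 without DMSO replicate 3. For complexes II to V, 1 rose and 1 fell without Clofilium tosylate replicate 2, and 5 rose without DMSO replicate 6. Of the mitochondrial DNA genes 2 fell without Clofilium tosylate replicate 1 and 0 without replicate 2.

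**Figure D2:**
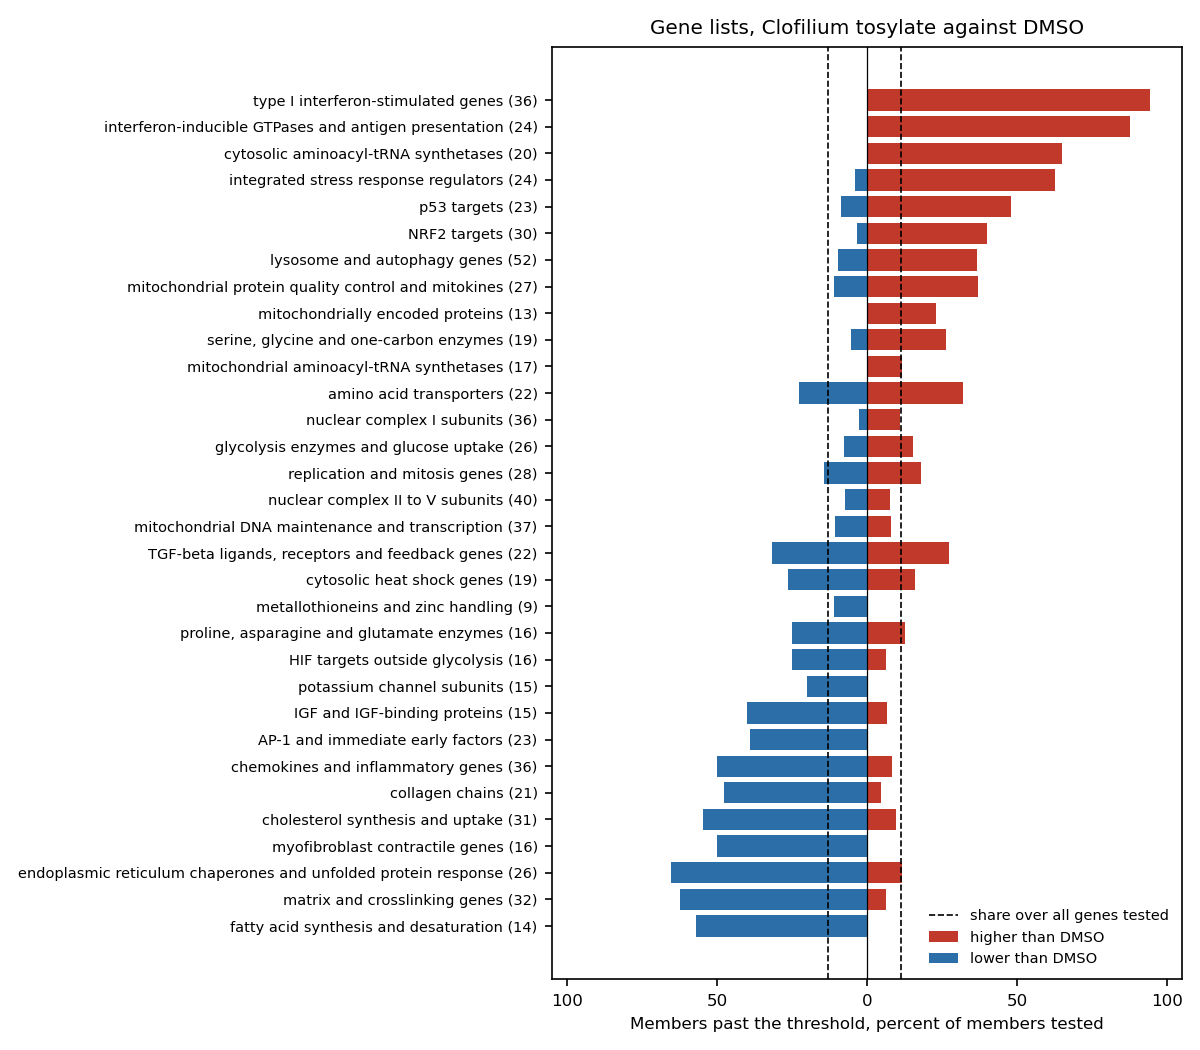
Share of each gene list past the threshold against DMSO, in percent of members tested, which are given in brackets. Red bars to the right are higher and blue bars to the left lower in Clofilium tosylate, and dashed lines mark the shares over all genes tested, 11.4% and 13.2%. Interferon lists and cytosolic aminoacyl-tRNA synthetases reach farthest to the right, and endoplasmic reticulum, matrix, fatty acid and cholesterol lists farthest to the left.

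Interferon-stimulated genes had the highest share of members that differed from DMSO among the 33 pathway lists. Of 36 type I interferon-stimulated genes, 34 rose and 0 fell, with a median of 0.75, and in 32 the groups did not overlap. Ifit3, an antiviral RNA-binding protein, stood at 319, 352 and 328 TPM against 71.9, 132 and 140.1 (1.49 ± 0.18, adjusted p = 9.24e-07; chromosome 19, 34583531 to 34588731, plus strand). Ifit3 and its neighbour Ifit3b share 61.8% and 55.2% of their 31-base words with other genes, so the split between them is uncertain. Irf7, the factor that amplifies the response, stood at 144, 195 and 160.1 TPM against 46.4, 62.0 and 72.0 (1.42 ± 0.13, adjusted p = 1.83e-08). Bst2, which tethers budding virus, stood at 612, 728 and 619 TPM against 228, 289 and 332 (1.18 ± 0.11, adjusted p = 1.15e-08). The lowest treated library exceeded the highest control in each of these genes.

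The factors that carry the interferon signal rose as well. Stat2 rose by 0.63 ± 0.10 and Irf9 by 0.45 ± 0.09. Among cytosolic sensors of foreign RNA, Ddx58, which encodes RIG-I, rose by 0.31 ± 0.10 and Ifih1, which encodes MDA5, by 0.41 ± 0.15. Isg15, a ubiquitin-like protein, stood at 145, 179.9 and 161 TPM against 70.1, 85.1 and 113 (0.88 ± 0.15, adjusted p = 8.2e-05). Its spread in DMSO was wide, but no control reached the lowest treated library. Usp18, which removes ISG15 and dampens the receptor, rose by 1.19 ± 0.14, and the 2-5A synthetase Oas1a by 1.07 ± 0.11, a value that is uncertain because 68.8% of its 31-base words also occur in other genes. The 2 members that did not pass were Ifi27 and Eif2ak2, which encodes the eIF2 kinase PKR (0.23 ± 0.10, adjusted p = 0.0945).

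Of 24 interferon-inducible GTPases and antigen presentation genes, 21 rose and 0 fell, with a median of 0.59. The class I heavy chain H2-K1 stood at 1402, 1776 and 1507 TPM against 889, 978 and 1131 (0.66 ± 0.07, adjusted p = 1.65e-07), and its partner B2m at 5599, 5470.1 and 5807 against 3709.8, 4424 and 4779.9 (0.36 ± 0.07, adjusted p = 0.00017). The groups did not overlap in either gene. Tap1, the peptide transporter, rose by 0.61 ± 0.13 and the immunoproteasome subunit Psmb8 by 0.58 ± 0.10. Irgm1, a GTPase of defence within cells, rose by 0.84 ± 0.11. H2 genes share sequence with one another (22.8% of 31-base words for H2-K1), so single members are less certain than the group.

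Interferon genes varied among the controls. DMSO replicate 6 was the lowest control for 31 of the 36 type I genes and for 22 of the 24 GTPase and antigen presentation genes. Without it, 33 and 21 members rose, and 1 of the GTPase and antigen presentation genes fell. Phf11d, an interferon-inducible gene outside both lists, was among the 12 largest rises at 84.0, 89.5 and 87.1 TPM against 27.4, 38.8 and 41.8 (1.22 ± 0.13, adjusted p = 2.36e-07). Ifitm1, a membrane protein that blocks virus entry and is also known as interferon-induced, went the other way. It stood at 20.8, 26.3 and 21.0 TPM against 46.0, 69.2 and 74.6 (−1.47 ± 0.12, adjusted p = 1.49e-09).

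NRF2 targets rose in smaller steps: 12 of 30 rose, 1 fell (2 without Clofilium tosylate replicate 2 or DMSO replicate 5 or 6), and the median was 0.14. Gclm, the regulatory subunit of the rate-limiting enzyme of glutathione synthesis, stood at 168, 157 and 165 TPM against 92.3, 117 and 122 (0.57 ± 0.07, adjusted p = 1.85e-06). Gsta4, which detoxifies lipid peroxides, rose by 0.47 ± 0.08, Taldo1 of the pentose phosphate pathway by 0.47 ± 0.06 and Gsr, which regenerates glutathione, by 0.36 ± 0.07. Nqo1, the usual reporter of NRF2, stood at 112, 107 and 117 TPM against 79.4, 88.9 and 108 (0.30 ± 0.07, adjusted p = 0.00196), with 1 treated library inside the control range. Hmox1 differed by 0.18 ± 0.08 (adjusted p = 0.111) and Txnrd1 by 0.06 ± 0.07 (adjusted p = 0.589), and neither passed. For scale, Gclm averaged 1584 TPM in Cardamonin and 1013 in AEG 3482, against 164 in Clofilium tosylate and 110.3 in DMSO.

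Chaperones of the endoplasmic reticulum fell, opposite in direction to the ATF4 targets. Of 26 chaperones and unfolded protein response genes, 17 fell, 3 rose and the median was −0.22. Hspa5, which encodes BiP, the master chaperone of this compartment, stood at 512, 532 and 476 TPM against 655, 678 and 724 (−0.43 ± 0.05, adjusted p = 1.63e-07). Calr, calreticulin, stood at 763, 788 and 762 TPM against 1029, 1089.6 and 1125 (−0.49 ± 0.05, adjusted p = 2.31e-08). No treated library reached the lowest control in either gene. Manf differed by −0.51 ± 0.05, Dnajc3 by −0.50 ± 0.04, Xbp1, the spliced factor of the response, by −0.33 ± 0.05, and Pdia3, a disulfide isomerase, by −0.30 ± 0.04. The members that rose were Atf6, Derl1 and Ern1, which encodes the sensor IRE1 (0.29 ± 0.08, adjusted p = 0.0101).

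Cytosolic heat shock genes were divided, with 3 of 19 higher and 5 lower, and 1 and 3 without Clofilium tosylate replicate 2. Hspa1b, an inducible HSP70, fell to 10.6 ± 1.72 from 22.2 ± 4.25 TPM (−0.99 ± 0.13, adjusted p = 2.64e-06), and its twin Hspa1a by 0.62. The pair share about 65.4% to 68.0% of their 31-base words with other genes. Hspb8, a small heat shock protein of chaperone-assisted autophagy, rose by 0.36 ± 0.04 (adjusted p = 9.88e-08).

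**Figure D3:**
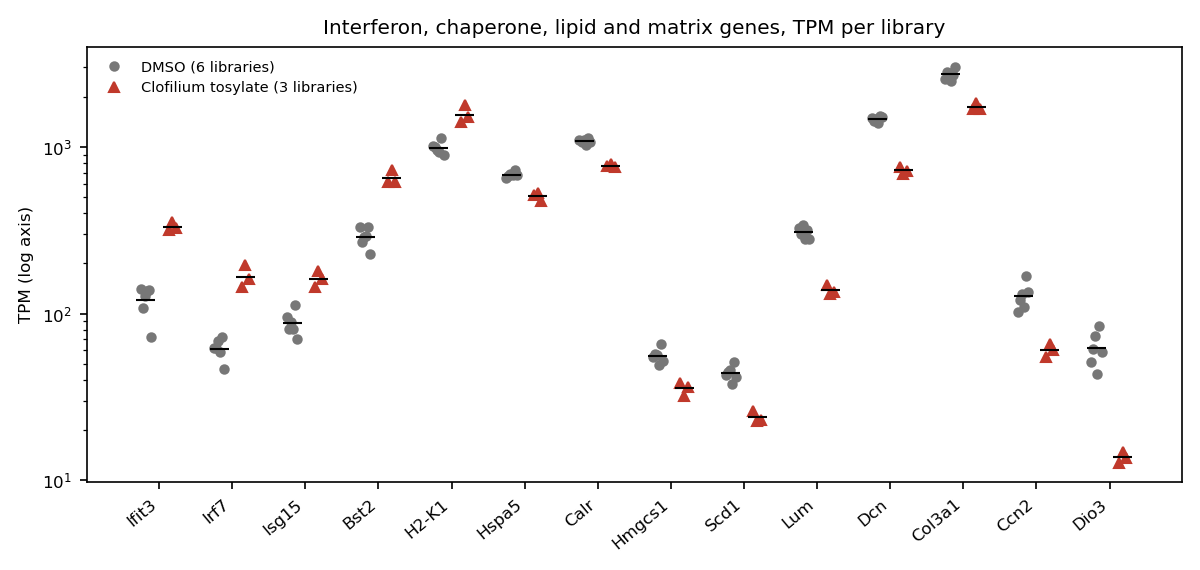
TPM of 14 interferon, chaperone, lipid and matrix genes in each library, on a log axis, with grey circles for the 6 DMSO libraries, red triangles for the 3 Clofilium tosylate libraries and black lines for group means. The 5 interferon and antigen presentation genes on the left lie above their controls, and the 9 genes from Hspa5 to Dio3 lie below theirs.

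Genes of cholesterol synthesis and uptake are raised together by SREBP2, and 17 of 31 fell while 3 rose, with a median of −0.25. Hmgcs1, at the head of the pathway, stood at 38.3, 31.8 and 36.4 TPM against 48.9, 55.5 and 65.4 (−0.63 ± 0.07, adjusted p = 3.2e-07). Every treated library was below every control. Idi1 fell by 0.57 and Sqle, which makes squalene epoxide, by 0.47. Npc1, which moves cholesterol out of lysosomes, was among the 3 that rose (0.38 ± 0.06, adjusted p = 1.84e-05). Srebf2 itself differed by −0.11 ± 0.07 (adjusted p = 0.276). The letters TCACNCCAC, a form of the element that SREBP binds, occurred on either strand in the promoters of 1 of 21 of these genes (4.76%), Hmgcs1, against 1.36% of tested genes.

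Fatty acid genes fell with them, 8 of 14 lower and 0 higher, with a median of −0.21. Scd1, the main desaturase, stood at 26.0, 22.6 and 23.1 TPM against 37.6, 43.7 and 51.0 (−0.85 ± 0.07, adjusted p = 2.21e-09), and no treated library came near the lowest control. Fads2, a desaturase of polyunsaturated fatty acids, differed by −0.60 ± 0.08, Scd2 by −0.43 ± 0.05 and the factor Srebf1 by −0.31 ± 0.07. Angptl4, a secreted inhibitor of lipoprotein lipase, was among the 12 largest falls, at 58.7, 57.3 and 53.9 TPM against 136, 166 and 196 (−1.53 ± 0.14, adjusted p = 2.29e-08).

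Lysosome and autophagy genes leaned higher, with 19 of 52 higher, 5 lower and a median of 0.10; the lower count was 3 without Clofilium tosylate replicate 2. Atp6v0d2, a subunit of the proton pump that acidifies lysosomes, stood at 35.0, 29.2 and 34.1 TPM against 12.1, 16.8 and 22.03 (0.95 ± 0.10, adjusted p = 2.59e-07). Ctsk, a collagen-degrading protease, stood at 765, 741 and 792 TPM against 405, 467 and 582 (0.66 ± 0.08, adjusted p = 9.15e-07). The groups were apart in both genes. Gla and Neu1, enzymes that remove sugars, rose by 0.62 and 0.47. Ctsh, another protease, fell by 0.42, and Tfeb, the factor that raises lysosomal genes, differed by −0.24 ± 0.12 (adjusted p = 0.152). The letters CACGTGAC, a form of the element that TFEB binds, occurred in the promoters of 7 of 40 of these genes (17.5%), against 4.72% of tested genes, and 3 of the 7 rose.

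Matrix genes, the main products of fibroblasts, fell. Of 32 matrix and crosslinking genes, 20 fell, 2 rose and the median was −0.32, and of 21 collagen chains 10 fell, 1 rose and the median was −0.25. Of the matrix rises 1 was left without Clofilium tosylate replicate 2. Lum, the small proteoglycan lumican that spaces collagen fibrils, stood at 148, 130.4 and 135 TPM against 279, 309.5 and 342 (−1.15 ± 0.07, adjusted p = 1.15e-11). Dcn, decorin, of the same family, stood at 754, 691 and 721 TPM against 1390.0, 1485 and 1526 (−1.03 ± 0.08, adjusted p = 6.05e-10). In both, the treated libraries lay near 1 level, well below the lowest control. Loxl2, which crosslinks collagen, differed by −0.68 ± 0.08, with 46.2% of its 31-base words shared with other genes, and Tnc, a matrix protein of wounds, by −0.93 ± 0.20.

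Among the collagens, Col3a1, a fibril collagen of skin, stood at 1691, 1829 and 1698 TPM against 2486, 2737 and 3027 (−0.65 ± 0.10, adjusted p = 1.54e-05). Col11a1 and Col12a1 differed by −0.97 ± 0.10 and −0.85 ± 0.08. Col1a1, the most familiar fibroblast collagen, differed by −0.16 ± 0.13 (adjusted p = 0.399) with overlapping groups. Col18a1, of basement membranes, was the chain that rose (0.42 ± 0.07, adjusted p = 4.02e-05). In these bulk libraries, fewer cells of a type and less RNA per cell cannot be told apart. Of the 12 fibroblast markers 6 fell, Lum, Dcn and Col3a1 among them, while Vim and Twist2 rose, and the part of a change in fibroblast number or state in the matrix result was not tested.

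Of 16 myofibroblast contractile genes 8 fell and 0 rose, and 5 fell without Clofilium tosylate replicate 3. Acta2, smooth muscle actin, stood at 151, 169 and 147 TPM against 194, 248 and 323 (−0.67 ± 0.14, adjusted p = 0.000804), and Myl9, a myosin light chain, differed by −0.57 ± 0.10. Tagln differed by −0.31 ± 0.17 (adjusted p = 0.196), with overlapping groups. TGF-beta is the main inducer of this state, and its list was split, 6 of 22 higher and 7 lower. Ccn2, a target of both TGF-beta and YAP, fell and stood at 54.6, 65.5 and 60.5 TPM against 103, 126 and 167 (−1.06 ± 0.19, adjusted p = 0.000196). The ligands Tgfb1 and Tgfb2 rose by 0.33 ± 0.06 and 0.36 ± 0.07, while Tgfb3 fell by 0.31. In no gene of this group named with its libraries did a treated library enter the control range.

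Insulin-like growth factor genes fell in 6 of 15 cases and rose in 1, and in 0 without Clofilium tosylate replicate 1 or 2. Igfbp3, the main carrier protein, stood at 201, 191 and 180.2 TPM against 303, 322 and 359 (−0.76 ± 0.10, adjusted p = 1.74e-06). Igf2, the fetal growth factor, fell to 2.60 ± 0.750 from 5.69 ± 1.15 TPM (−0.90 ± 0.15, adjusted p = 7.29e-05), with 61.9% of its 31-base words shared with other genes. Igf1r, the receptor, differed by −0.40 ± 0.08.

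Inflammatory genes fell while interferon genes rose. Of 36 chemokines and inflammatory genes, 18 fell and 3 rose, and the median was −0.28. Il33, an alarmin cytokine, stood at 15.7, 15.5 and 16.8 TPM against 34.0, 40.5 and 45.3 (−1.27 ± 0.08, adjusted p = 5.35e-11). Ccl20, a chemokine for lymphocytes and dendritic cells, stood at 39.5, 30.3 and 31.5 TPM against 62.7, 79.2 and 95.5 (−1.21 ± 0.13, adjusted p = 1.64e-07). The highest treated library of either gene was below the lowest control. Cxcl1, a neutrophil chemokine, stood at 996, 879 and 823 TPM against 1336, 1441 and 1479.9 (−0.66 ± 0.08, adjusted p = 1.14e-06). Nfkbia, the inhibitor that NF-kappaB induces as feedback, differed by −0.53 ± 0.05 (adjusted p = 1.83e-08), and Ptgs2, which encodes COX-2, by −0.74 ± 0.09.

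The 3 that rose were Cxcl9, Cxcl11 and Ccl5, all known to respond to interferon, by 1.18 ± 0.16, 1.08 ± 0.16 and 0.59 ± 0.09. Some macrophage markers moved with the inflammatory falls, 3 of 5 tested lower and 0 higher. Lyz2 stood at 82.5, 76.1 and 80.7 TPM against 129, 159 and 180.4 (−0.96). Adgre1, which encodes the macrophage surface protein F4/80, stood at 5.45, 5.16 and 4.97 TPM against 9.05, 10.3 and 12.1 (−0.88 ± 0.09, adjusted p = 1.65e-07), and Csf1r, the receptor macrophages need to survive, differed by −0.36 ± 0.09 (adjusted p = 0.00508). No treated library reached the lowest control in these 3 genes. The other 2 markers tested did not follow. Cd68 differed by −0.003 (adjusted p = 0.990) with overlapping groups. Cd14 differed by 0.17 (adjusted p = 0.0742), and each of its treated libraries lay above every control. Ptprc, which marks all blood-derived cells, was below 1 TPM in every library. The part of macrophages in the inflammatory result was not tested. Of 23 AP-1 and immediate early factors, 9 fell and 0 rose, with a median of −0.20, and 1 rose without Clofilium tosylate replicate 1 or 3 or DMSO replicate 5 or 6. Egr3 fell to 2.93 ± 0.411 from 4.93 ± 0.607 TPM (−0.59 ± 0.10, adjusted p = 4.15e-05), and Dusp6, a feedback phosphatase of ERK signalling, by 0.36. Fos also fell, at 6.42, 5.10 and 4.74 TPM against 6.32, 11.9 and 16.9 (−0.92 ± 0.27, adjusted p = 0.0144). It varied widely among controls, and 1 treated library lay within their range.

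p53 targets rose in 11 of 23 cases and fell in 2, but 5 rose without Clofilium tosylate replicate 2. Gadd45a, a stress-induced growth arrest gene that ATF4 also raises, stood at 779.8, 825 and 783 TPM against 441, 504 and 642 (0.62 ± 0.08, adjusted p = 2.04e-06). The groups did not overlap. Cdkn1a, the cell cycle inhibitor p21, rose by 0.24 ± 0.05. Fas, a death receptor, fell by 0.59 (adjusted p = 1.39e-06) and Sesn1 by 0.37. Replication and mitosis genes did not move together, with 5 of 28 higher and 4 lower, and 2 to 3 higher when any single Clofilium tosylate library or DMSO replicate 2 or 5 was left out. The lower count was 2 without Clofilium tosylate replicate 2. Ccnd1, which drives cells into the cycle, fell to 17.3 ± 2.12 from 32.7 ± 6.41 TPM (−0.87 ± 0.11, adjusted p = 1.14e-06).

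Voltage-gated potassium channels are the known drug targets of clofilium, and the list of 40 potassium channel subunits also holds other types. Of the 40, 15 were expressed well enough to test, and 3 fell while 0 rose (1 without DMSO replicate 6). Kcnj2, an inward rectifier, stood at 3.33, 2.81 and 3.43 TPM against 4.24, 5.05 and 6.11 (−0.55 ± 0.09, adjusted p = 2.84e-05). The groups did not overlap in this gene. Kcnk2, a background potassium channel, differed by −0.68 ± 0.19 (adjusted p = 0.00868), a call lost without Clofilium tosylate replicate 1. Kcnh2, the cardiac hERG channel, stood at 1.13, 1.44 and 0.608 TPM against 0.332, 0.512 and 1.38 (0.35 ± 0.18, adjusted p = 0.165). Those libraries overlapped, and the channel was low in both groups. Glycolysis genes rose in 4 of 26 cases and fell in 2, and the rises were 0 without Clofilium tosylate replicate 2 and 2 without replicate 1 or 3 or DMSO replicate 1 or 5, and the falls were 1 without Clofilium tosylate replicate 3. HIF targets outside glycolysis fell in 4 of 16 cases and rose in 1, and in 0 without Clofilium tosylate replicate 1 or 2. Adm, adrenomedullin, was the largest of those falls (−0.80 ± 0.10, adjusted p = 1.07e-06), from 256 ± 44.6 to 145 ± 17.2 TPM. Metallothioneins and zinc carriers rose in 0 of 9 cases and fell in 1, Slc30a4, a call lost without Clofilium tosylate replicate 1 or 2 or DMSO replicate 3 or 4, and 1 rose without DMSO replicate 6.

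Among genes with a name rather than a predicted-gene number, the largest fall was in Dio3, the enzyme that inactivates thyroid hormone and lies in an imprinted domain. Dio3 stood at 12.7, 14.8 and 13.7 TPM against 43.1, 60 and 84.0 in DMSO, a difference of −2.06 ± 0.15 (adjusted p = 2.35e-10; chromosome 12, 110279068 to 110281097, plus strand). The controls spread widely and still lay far above the treated libraries. Among the 12 largest falls, Bmp4, a ligand of the BMP pathway, stood at 2.38, 2.60 and 2.92 TPM against 5.44, 9.26 and 11.8 (−1.46 ± 0.14, adjusted p = 4.61e-08), and Wnt5a, a noncanonical WNT ligand, at 17.6, 21.0 and 19.1 against 44.6, 48.5 and 59.1 (−1.35 ± 0.09, adjusted p = 5.59e-11). Lgr5, the R-spondin receptor that marks stem cells in several tissues, differed by −1.31 ± 0.16 (adjusted p = 1.19e-06). None of these genes overlapped between the groups.

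Agtr2, an angiotensin receptor, stood at 9.17, 10.1 and 9.03 TPM against 24.6, 28.0 and 29.6 (−1.44 ± 0.11, adjusted p = 3.72e-10). Pi16, a marker of stem-like fibroblasts of the adventitia and skin, stood at 7.42, 7.89 and 7.48 against 18.03, 23.7 and 49.5 (−1.64 ± 0.31, adjusted p = 0.000279), with 1 control far above the rest. Serpina3c, a secreted protease inhibitor, differed by −1.53 ± 0.09 and Gdpd2, a phosphodiesterase, by −1.85 ± 0.17. Gdpd2 stood at 0.568, 0.542 and 0.936 TPM in Clofilium tosylate, all below 1 TPM. It passed the filter only through DMSO, the group where it is high. Tm4sf1, a membrane protein, differed by −1.33 ± 0.12 and Syt13, a synaptotagmin, by −1.32 ± 0.08. Sh2d6, an adaptor protein, completed the 12 largest rises at 5.00, 6.69 and 7.39 TPM against 1.02, 1.86 and 3.60 (1.30 ± 0.21, adjusted p = 6.29e-05).

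**Figure D4:**
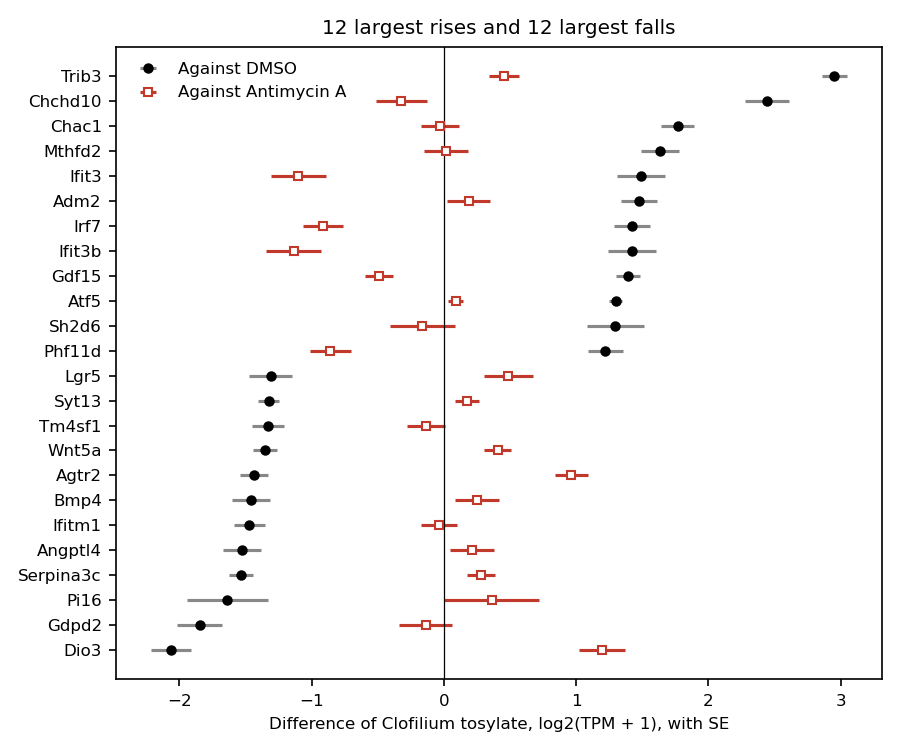
Log2 differences of TPM + 1, with standard errors, of the 12 largest rises and 12 largest falls against DMSO (black circles) and of the same genes against Antimycin A (open red squares). Against Antimycin A, Trib3, Dio3, Agtr2 and Wnt5a are higher and Ifit3, Irf7, Ifit3b, Gdf15 and Phf11d are lower, and the other 15 did not pass.

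Clofilium tosylate was then set directly against other compounds, in contrasts between group means that leave out the DMSO mean, although the DMSO libraries add to the estimate of the spread. In the fit of all 30 libraries, the fewest genes differed from Dihydrorotenone, 340 of 12934 (2.63%), followed by BerberineA with 391 (3.02%), Diphenyleneiodonium Cl with 435, Antimycin A with 710 (5.49%), Podofilox with 5271, AEG 3482 with 8594 and Cardamonin with 8654. Dihydrorotenone inhibits complex I of the respiratory chain and Antimycin A inhibits complex III. When only the 2 groups compared were fitted, 180 genes differed from Dihydrorotenone, 129 from BerberineA and 457 from Antimycin A, so the order of the first 2 turned. These counts were also sensitive to single libraries: Dihydrorotenone gave 181 without its own replicate 1, 223 without its replicate 3 and 196, 210 and 204 without Clofilium tosylate replicates 1, 2 and 3. BerberineA gave 254 and 220 without Clofilium tosylate replicates 1 and 3 and 230 and 233 without its own replicates 2 and 3. Antimycin A gave 442 and 472 without Clofilium tosylate replicates 1 and 3 and 323 without its own replicate 1.

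Against Dihydrorotenone, genes of the integrated stress response and tRNA charging were higher in Clofilium tosylate. The background for these counts is 1.65% higher and 0.982% lower. Of the 24 regulators 10 were higher and 0 lower, and of the 20 cytosolic aminoacyl-tRNA synthetases 14 were higher and 0 lower. The counts were 5 of 19 for serine and one-carbon enzymes, 6 of 22 for amino acid transporters and 13 of 30 for NRF2 targets, with 0 lower in each. Trib3 averaged 40.7 ± 2.89 TPM (SD, n = 3) in Clofilium tosylate and 3.86 ± 0.661 TPM (SD, n = 3) in Dihydrorotenone, a difference of 3.11 ± 0.11 (adjusted p = 3.72e-16). Mthfd2 averaged 4.09 TPM in Dihydrorotenone against 21.99 (2.17 ± 0.17), and Atf5 71.5 against 205 (1.502 ± 0.06). Atf4 differed by 0.52 (adjusted p = 9.08e-08) and Gclm by 0.88 (adjusted p = 8.55e-08).

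Few interferon genes differed from Dihydrorotenone. Only Stat2 and Oas3 of the 36 type I genes passed, both higher, with a list median of 0.26. Both calls were lost when any 1 library of either compound was left out. Of the 24 GTPase and antigen presentation genes 2 were higher and 0 lower, and 0 to 1 were higher with single libraries left out. Both shares lie above the background of 1.65% higher but rest on 2 genes each. Ifit3 averaged 270.2 TPM in Dihydrorotenone against 333 (0.31 ± 0.21, adjusted p = 0.538). Matrix genes were lower in 3 of 32 cases, with Lum at −0.70 (adjusted p = 1.74e-06), Dcn at −0.68 and Thbs2. Il33 differed by −0.89 (adjusted p = 6.12e-07) and Scd1 by −0.39 (adjusted p = 0.00482). Of the mitochondrially encoded genes 3 of 13, mt-Nd5, mt-Nd6 and mt-Cytb, were lower, and 0 to 2 were when a single library of either compound was left out. The mice for Dihydrorotenone replicate 1 are labelled as older, with an age range that begins where that of all other libraries ends. In that library, age and compound cannot be told apart. Without it, 181 genes differed from Dihydrorotenone in place of 340. Leaving out any other library of either compound also lowered the count, to between 196 and 235.

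Against BerberineA, stress response genes were again higher. Of the integrated stress response regulators 9 of 24 were higher and 0 lower, and of cytosolic aminoacyl-tRNA synthetases 9 of 20 were higher, 5 without Clofilium tosylate replicate 1 or 2 or BerberineA replicate 2. The background here is 1.26% higher and 1.76% lower. NRF2 targets were higher in 16 of 30 cases and lower in 1, and lower in 0 when any single library other than BerberineA replicate 1 was left out. In neither interferon list did a gene pass in either direction, and 1 type I gene was lower without BerberineA replicate 1 or Clofilium tosylate replicate 2. Trib3 averaged 9.33 ± 0.132 TPM (SD, n = 3) in BerberineA, a difference of 2.01 ± 0.11 (adjusted p = 3.64e-12).

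Against Antimycin A, 4 of the 24 integrated stress response regulators differed. The background is 1.45% higher and 4.04% lower in Clofilium tosylate. Of the 24 integrated stress response regulators, Trib3 was higher, at 29.4 ± 1.51 TPM (SD, n = 3) in Antimycin A (0.45 ± 0.11, adjusted p = 0.0151), a call that was lost without Clofilium tosylate replicate 2 and without Antimycin A replicate 1 or 2. Atf4, Nupr1 and Atf3 were lower, with differences of −0.21, −0.34 and −0.86. For the serine and one-carbon enzymes and the cytosolic aminoacyl-tRNA synthetases, 0 of 19 and 0 of 20 passed in either direction. Of the 30 NRF2 targets, 0 were higher and 4 lower, or 2 lower when values were rescaled without the 20 most abundant genes. Mthfd2 averaged 21.8 TPM in Antimycin A and 21.99 in Clofilium tosylate (0.02 ± 0.17, adjusted p = 0.978). A p that misses the threshold does not show that both compounds act alike.

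Interferon genes were lower in Clofilium tosylate than in Antimycin A. Of the 36 type I genes 25 were lower, 12 without Antimycin A replicate 1 and 15 without Clofilium tosylate replicate 1, and Ifi27 was higher, a call lost without any 1 library of either compound. Of the 24 GTPase and antigen presentation genes 17 were lower and 0 higher, with 9 lower without Antimycin A replicate 1 and 10 without Clofilium tosylate replicate 1 or 3. The chemokine Cxcl10 averaged 23.3 ± 1.35 TPM (SD, n = 3) in Clofilium tosylate and 68.2 ± 11.4 TPM (SD, n = 3) in Antimycin A (−1.498 ± 0.22, adjusted p = 0.000145). Rsad2, the antiviral enzyme viperin, Ifi44l and Tgtp2 were the next lowest, at −1.30 ± 0.17, −1.20 ± 0.17 and −1.20 ± 0.25, and Tgtp2 shares 90.5% of its 31-base words with other genes. Ifit3 averaged 333 TPM here, between 120.4 in DMSO and 719 with Antimycin A.

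Transcripts of the mitochondrial genome were more abundant in Clofilium tosylate than in Antimycin A. Of the 13 genes 10 were higher in Clofilium tosylate and 0 lower, and 8 to 10 were higher with single libraries left out. mt-Atp6 averaged 4830.3 ± 977 TPM (SD, n = 3) in Clofilium tosylate and 1814 ± 33.4 TPM (SD, n = 3) in Antimycin A (1.39 ± 0.12, adjusted p = 4.97e-08). mt-Cytb, the mitochondrially encoded subunit of complex III, was higher by 1.07 (adjusted p = 1.13e-09), and mt-Nd4l by 1.10 (adjusted p = 1.11e-05), which is uncertain with 98.9% of its 31-base words shared with other genes. Dio3 was higher by 1.20 ± 0.17 and Ccl20 by 1.15 ± 0.15, with averages of 5.49 and 14.7 TPM in Antimycin A. Cholesterol genes were higher in 11 of 31 cases, 6 without Clofilium tosylate replicate 1 and 7 without Antimycin A replicate 3. Lysosome genes were lower in 15 of 52, 8 without Antimycin A replicate 1 and 9 without Clofilium tosylate replicate 1 or Antimycin A replicate 3.

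**Figure D5:**
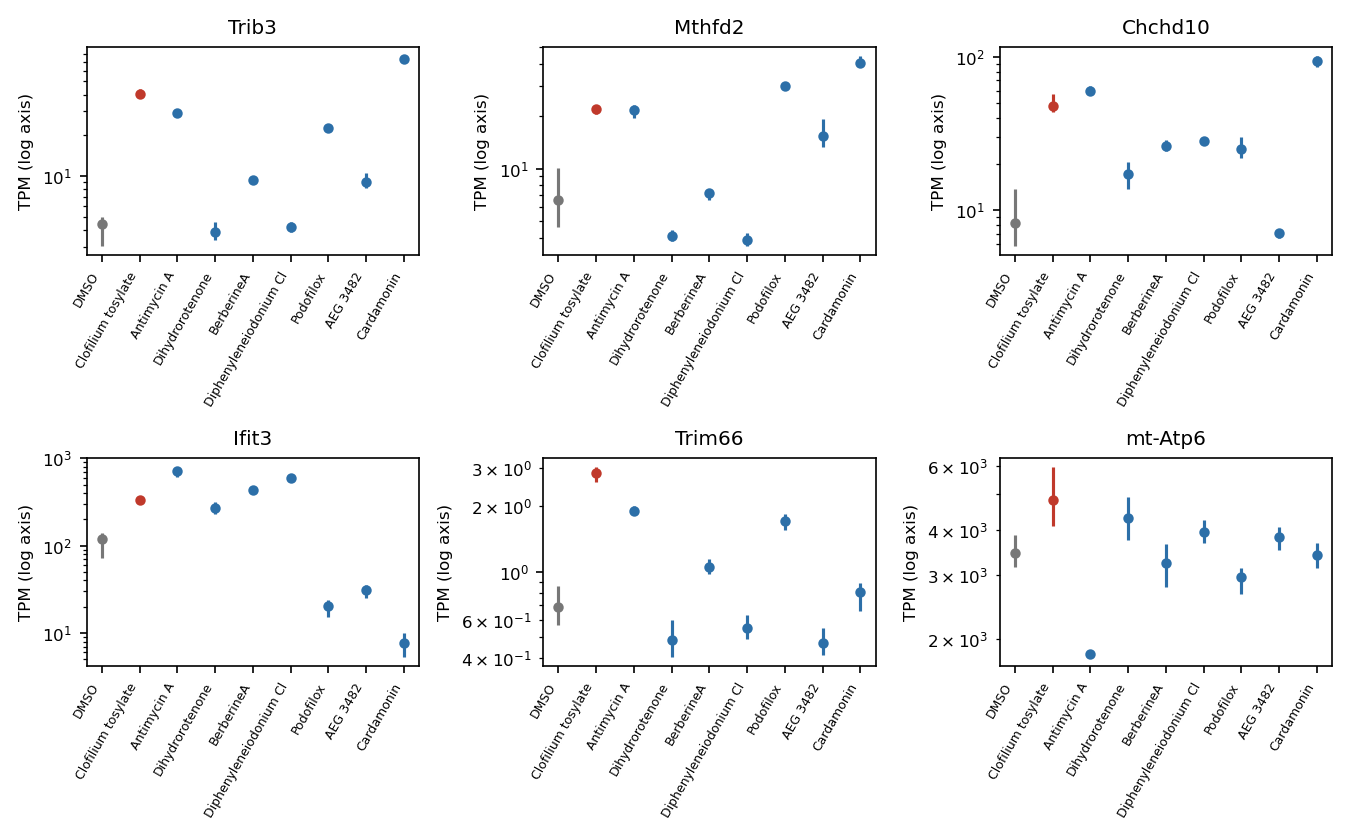
Mean TPM of 6 genes in the 9 groups of the series, on log axes, with lines from the lowest to the highest library. Clofilium tosylate is red, DMSO grey and the other compounds blue. Trib3 is highest in Cardamonin, Ifit3 is highest in Antimycin A, Trim66 is highest in Clofilium tosylate, and mt-Atp6 is lowest in Antimycin A.

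Across all 9 groups, Trib3 was highest in Cardamonin, at 72.8 ± 3.36 TPM (SD, n = 3), then in Clofilium tosylate, Antimycin A (29.4 TPM) and Podofilox (22.8). BerberineA (9.33) and AEG 3482 (9.07) lay between these and DMSO, with ranges that overlapped each other. Dihydrorotenone (3.86) and Diphenyleneiodonium Cl (4.17) lay within the range of DMSO. Chchd10 averaged 93.6 TPM in Cardamonin, 59.9 with Antimycin A, 48.1 with Clofilium tosylate, 28.1 in Diphenyleneiodonium Cl, 26.4 in BerberineA, 25.2 in Podofilox and 17.3 in Dihydrorotenone. In AEG 3482 it averaged 7.07 TPM, below the DMSO mean of 8.30 and within the DMSO range. Dio3 was below the DMSO range in all 8 compounds.

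Of all 12934 genes, 2 (0.0155%) passed against DMSO and against each of the 7 other compounds in 1 direction, both of them higher. Trim66, a tripartite motif protein of chromatin, stood at 2.94, 3.02 and 2.59 TPM in Clofilium tosylate and at 0.569, 0.678 and 0.858 in DMSO (1.19 ± 0.08, adjusted p = 5.59e-11). The nearest group was Antimycin A at 1.91 ± 0.0966 TPM (SD, n = 3), below all 3 treated libraries (0.41 ± 0.09, adjusted p = 0.00791). Nrip2, a protein that interacts with nuclear receptors, stood at 5.38, 7.09 and 5.98 TPM against 1.80, 2.26 and 3.75 (1.08 ± 0.14, adjusted p = 2.58e-06). Its mean of 6.15 TPM compares with 4.18 for Cardamonin and 3.69 for Antimycin A. Both genes are low. Trim66 was below 1 TPM in all 6 DMSO libraries and passed the filter only through the group where it is high. Its p-values are therefore not independent of that selection. The count of 2 genes was 0 when only genes with a mean of at least 5 TPM were kept. It was 1 without Clofilium tosylate replicate 3 and 3 without Clofilium tosylate replicate 1.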

How the data were processed

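Ribosome-depleted total RNA was sequenced in 30 libraries, 6 of DMSO and 3 of each of 8 compounds, per the labels. The deposited values are TPM per gene, listed by Ensembl gene. Reads were quantified with kallisto 0.43.1 on mm10 after FastQC, per the submitters' processing notes, and the series text names tximport and DESeq2. The transcript set and settings are not given in the sources used here. TPM is relative to the other transcripts of a library, so the depth behind each value is unknown.

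Gene symbols came from GENCODE M21 (GRCm38) for 12872 of the 12934 genes tested. Values were tested as log2(TPM + 1) in limma 3.58.1 (R 4.3.3), with 1 mean per group, all 30 libraries in the fit, an intensity trend and Benjamini-Hochberg adjustment over all genes tested, at a threshold of 0.05. The code of the fit was run on simulated data with independent normal values and changes of equal size. That setting is simpler than these data and lends no support to the calls reported here. Library-level values were compared by exact permutation tests. Promoters came from the RefSeq table of GRCm38.p6. Sharing of 31-base words between genes was counted on annotated transcripts.

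The members and gene lists were chosen with earlier results of these data known. Named genes were the 12 largest rises and 12 largest falls that averaged 5 TPM or more in whichever group was higher, did not overlap DMSO and were not predicted genes by symbol, the largest differences from Antimycin A, genes apart from all other groups, and up to 8 members of each list. Further list members were named for their role after their values were seen. Some list members are not reported here by name. Alternatives tried were another pseudocount, filters on low values, other scalings, fewer libraries in the fit, a replicate block and leaving out each library. The series text gives 5 DMSO replicates and the labels give 6, and all 6 were used.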

Additional observations from a re-analysis of the deposited data

Results flagged for a closer look

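Among the 6 DMSO libraries, 8 of 65 results checked had 1 library far from the rest by Dixon's test at its 95% critical value. Chance alone gives this in about 1 of 20 groups. The 8 cannot be compared with that rate, because they include predicted genes chosen after their values were seen. Of all 12934 genes tested, 708 were marked in this way, 211 of them for DMSO replicate 6. Trib3 was 3.05 TPM in DMSO replicate 1 and 4.26 to 4.97 in the others. Ddit3 was 97.0 TPM in DMSO replicate 2 and 78.5 to 83.7 in the others. Nrip2 was 3.75 TPM in DMSO replicate 5 and 1.80 to 2.46 in the others. In all 3 genes the treated libraries lay above every control.

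The other 5 are predicted genes outside the naming rule, chosen after their values were seen because they had the largest falls in the comparison. In DMSO replicate 6, Gm10800 was 258 TPM (others 22.3 to 45.6), Gm10801 145 TPM (others 11.4 to 22.9), Gm10718 59.2 TPM (others 4.55 to 10.6), Gm10717 51.6 TPM (others 6.30 to 8.82) and Gm10719 42.2 TPM (others 3.72 to 7.90). Gm10800 stood at 1.20, 1.99 and 1.18 TPM in Clofilium tosylate. Gm10718 was at 0 TPM in every treated library and Gm10717 at 0.324, 0 and 0.787. Both passed the filter only through DMSO, the group where they are high. Whether the 5 predicted genes hold repeated sequence, or share it with other genes, was not examined. The log2 differences of Gm10800 and Gm10801 were −4.24 and −3.85 with all 6 controls and −3.74 and −3.36 without DMSO replicate 6, and all 5 genes passed the threshold in limma without it.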

How the results depend on the processing

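The 3191 genes that differed from DMSO numbered 2279 when only the 2 groups compared were fitted and 2809 to 3583 under the other settings that kept all libraries. With single libraries left out, the count was 2325 (without Clofilium tosylate replicate 2) to 3354 (without DMSO replicate 6), the higher genes 998 to 1539, the lower genes 1264 to 1856 and the list members called 283 to 374, against 360 in the reported fit. The share of higher genes among those called was 43.4% to 49.0% over the settings that kept all libraries, against 46.4% as reported. Deviations of same-numbered libraries correlated at 0.111, 0.123 and −0.0228, which is too little to settle whether replicate numbers paired the samples. The fit with the replicate block gave fewer genes against DMSO, 2881. It gave more in the direct contrasts: 893 against 710 for Antimycin A, 413 against 340 for Dihydrorotenone and 511 against 391 for BerberineA. Genes apart from all other groups numbered 1 with a pseudocount of 0.1, 6 with no filter, 0 with a mean of at least 5 TPM, 0 when only the groups compared were fitted and 1 to 3 with single libraries left out. With only the groups compared fitted, which leaves fewer samples for the spread, 457 genes differed from Antimycin A, 180 from Dihydrorotenone and 129 from BerberineA. With single libraries left out, these counts were 323 to 516, 181 to 235 and 220 to 405. The alternatives for Dihydrorotenone and BerberineA and the list counts in the direct contrasts were chosen after seeing the data. The 20 most abundant genes held 18.03% of listed TPM in Clofilium tosylate and 18.7% in DMSO, a difference of −0.633 percentage points (exact permutation p = 0.0476, adjusted p = 0.143 over 3 tests), and −0.813 to −0.412 with single libraries left out. The mitochondrially encoded share differed by 0.513 to 1.09 percentage points with single libraries left out. Of 57 log2 differences of named genes, 1015 of 1019 alternative values kept their direction and call, and the 4 exceptions were mt-Nd2, at 3 settings, and Kcnk2, at 1. The 57 include the largest rises and falls and leave out other named genes, such as Cars, Sesn1 and Igf1r. Their stability does not extend to the genes left out. Of 2178 alternative list counts, 1929 were within 1.5 times the reported count, including each reported 0 that stayed 0. Of the 132 list counts, 65 left that range in at least 1 alternative. With no read counts, no counting error can be given, and low genes are the least certain.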

Other observations

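Markers of nerve sheath and pigment cells, listed to check for other cell types, summed to 13.3 to 17.4 TPM in Clofilium tosylate and 8.55 to 10.9 in DMSO. The sum followed Mlana, a melanosome protein, at 8.15, 11.3 and 13.1 TPM against a DMSO range of 2.999 to 5.45 (1.13 on the log2 scale), while Sox10 and Dct were at or near 0 in all 9 libraries. Lck, a T cell kinase, stood at 1.91, 1.37 and 3.31 TPM against 0.413 to 1.58 in DMSO (0.83 on the log2 scale), with overlapping groups and with Cd3e and Cd2 at 0.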
